A study of Mus musculus with 8 samples.

Results

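Dio2 and 5 other genes of thyroid hormone action (Slc16a10, Thra, Thrb, Ncoa1 and Ncor1) were followed in brown fat (brown adipose tissue), the depot that makes heat. The group was chosen by function, and Dio2 was singled out for its wide variation between mice, so the size of that variation is given as a description with no test. Of the 6 genes, 5 had a probe set that names 1 gene symbol, among 22180 such genes in all. Ncor1, which encodes a nuclear corepressor, was not analysed here.

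The samples were 8 male C57BL/6J mice, 3 wild type (WT) and 5 labelled Abhd15 KO. All were 14 weeks old, were on normal chow, and had been fasted overnight and then refed for 1 h. The labels name no transgene, litter or harvest batch. They also speak of up to 14 weeks on the chow diet, so the age rests on the design text alone. Each array held RNA of 1 mouse, measured on a 1-colour Affymetrix gene array. Because nothing in the labels says how the mice were bred or housed, p-values measure the spread between these samples only.

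Thyroid hormone circulates mainly as thyroxine (T4), which binds its receptors weakly. Type 2 deiodinase, the selenoenzyme encoded by Dio2, removes an iodine from T4 inside the cell and makes the active form triiodothyronine (T3). In brown fat the enzyme is induced by noradrenaline through cyclic AMP, and T3 made there supports transcription of Ucp1, the uncoupling protein that releases heat. T3 acts through the nuclear receptors TR alpha (Thra) and TR beta (Thrb), which recruit coactivators such as Ncoa1 when the hormone is bound and corepressors when it is not.

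The RefSeq promoter of Dio2 is shown because cyclic AMP induces the gene, and that of Ppargc1a because both transcripts were high and low in nearly the same mice. Each sequence is the 250 bases before the annotated start on build GRCm38.p6, read 5′ to 3′ on the gene's strand. Capitals mark TGACGTCA, the palindromic cyclic AMP response element, or its 5-base core TGACG on either strand (CGTCA when read on the other strand). The Dio2 window lies at chr12:90739039-90739288 and the Ppargc1a window at chr5:51567726-51567975, both on the minus strand.
Dio2: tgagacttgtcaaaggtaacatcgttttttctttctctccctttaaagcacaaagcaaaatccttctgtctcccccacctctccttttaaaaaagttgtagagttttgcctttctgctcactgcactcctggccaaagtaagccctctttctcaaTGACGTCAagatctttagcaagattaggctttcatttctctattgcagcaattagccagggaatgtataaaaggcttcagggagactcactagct
Ppargc1a: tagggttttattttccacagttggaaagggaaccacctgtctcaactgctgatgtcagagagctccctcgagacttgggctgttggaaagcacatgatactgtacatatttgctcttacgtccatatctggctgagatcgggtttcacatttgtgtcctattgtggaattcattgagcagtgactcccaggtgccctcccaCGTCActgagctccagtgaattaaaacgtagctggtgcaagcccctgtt
The Dio2 window held the whole palindrome, 95 to 88 bases before the start, in which a core on each strand overlaps the other. The Ppargc1a window held 1 core, 49 to 45 bases before the start. It belongs to the only annotated start read for that gene, and any other start of Ppargc1a was not searched. Of 32851 promoter windows of this length, 1.55% held the palindrome and 17.8% held the core. Of the other members, the more upstream of the 2 Thrb windows held 1 core, 56 to 52 bases before its start. The windows of Slc16a10, Ncoa1 and Ncor1 held none. Promoters were matched for 5 of the 6 members, not for Thra. A match in these letters is a description and says nothing about binding in these mice.

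Ucp1 lay between 12.51 and 12.89 log2 in the 8 arrays, and the mean of 7 brown adipocyte markers lay between 9.16 and 9.51, so the labelled tissue had its defining markers. Values are deposited on a log2 scale, so 1 unit is a doubling, and they compare a gene between arrays and not 1 gene with another. A gene was taken as dim below 2.88 log2, the level under which 95% of olfactory and vomeronasal receptor values lie. Of the thyroid gland markers, Tg and Pax8 were below that limit in every array, Slc5a5 lay at 2.52 to 3.60 and Tshr, which fat also expresses, at 6.50 to 7.52. The brighter of the 2 Abhd15 probe sets read 5.87 to 6.23 in WT and 5.68 to 6.34 in the 5 arrays labelled as knockout, with means of 6.01 and 6.12. No source used here states which exons were removed, so this leaves the labels unchecked, and every direction below rests on them. The mean of 12 skeletal muscle markers ranged from 5.92 to 8.72 in WT and from 5.10 to 8.07 in the arrays labelled Abhd15 KO, and none of the 12 was dim in all arrays. WT replicate 2 and Abhd15 KO replicate 1 stood apart in the feeding-induced gene Angptl8 (7.95 and 7.90, against 10.41 to 10.81 in the others). Results that turn on them are also given without them.

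Dio2 varied widely among mice that carry 1 label. It read 5.57, 6.62 and 6.80 in WT replicates 1 to 3. In the Abhd15 KO arrays it read 7.27, 7.10, 4.47, 7.42 and 8.32 in replicates 1 to 5. The lowest and the highest mouse both carry the Abhd15 KO label, and they stood 14.4-fold apart. The WT range lay inside the Abhd15 KO range, so the groups overlapped. The means were 6.33 ± 0.66 (SD, n = 3) and 6.92 ± 1.44 (SD, n = 5).

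**Figure D1:**
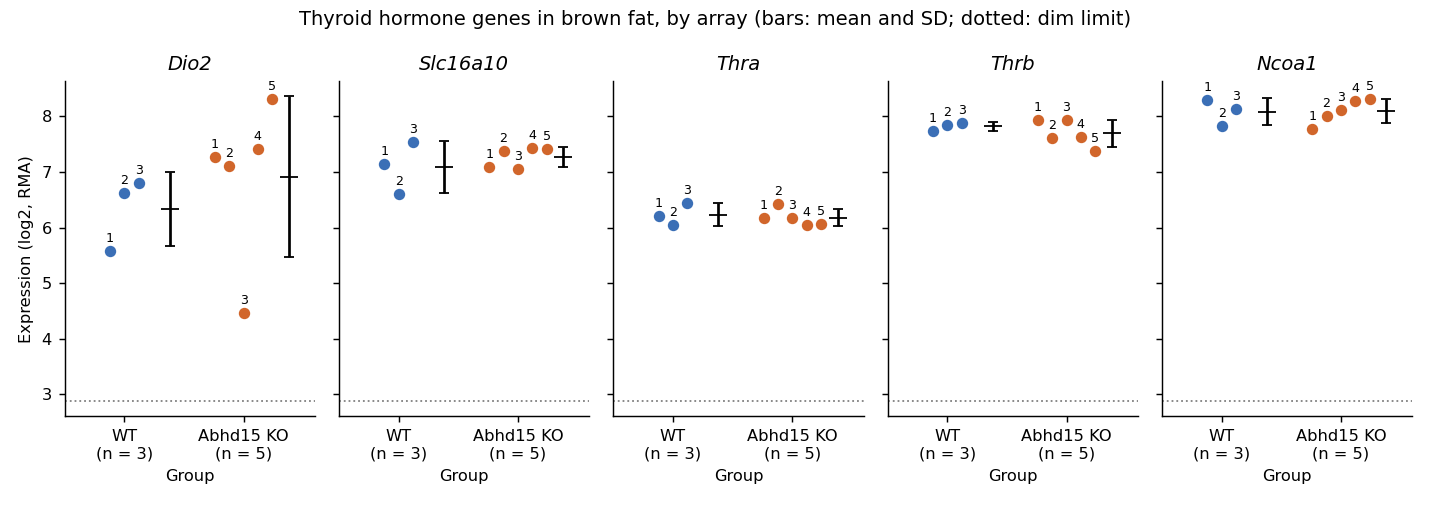
Expression of the 5 measured members on the log2 scale of the deposited values, 1 point per mouse, numbered by replicate, for 3 WT mice and 5 labelled Abhd15 KO. Black bars are the group mean with its SD, and the dotted line is the dim limit of 2.88; Dio2 spans 4.47 to 8.32, while the other 4 genes stay within 1 log2 unit.

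The spread of Dio2 was among the widest on the array. The SD around the group means was 1.24 log2, or 5.44 times the median SD of the 13223 genes tested (0.23). It ranked 36th, with 35 genes above it, and 7 of those 35 belong to the skeletal muscle marker list. The genes just above it in that order were Mybpc1 (1.25) and Acta1 (1.27), both of skeletal muscle, and the gene just below was Fosb (1.21), an immediate early transcription factor. Abhd15 KO replicate 3 weighed most in this rank: without it the SD was 0.60 and the rank 441, while leaving out any other single array gave ranks of 11 to 55.

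**Figure D2:**
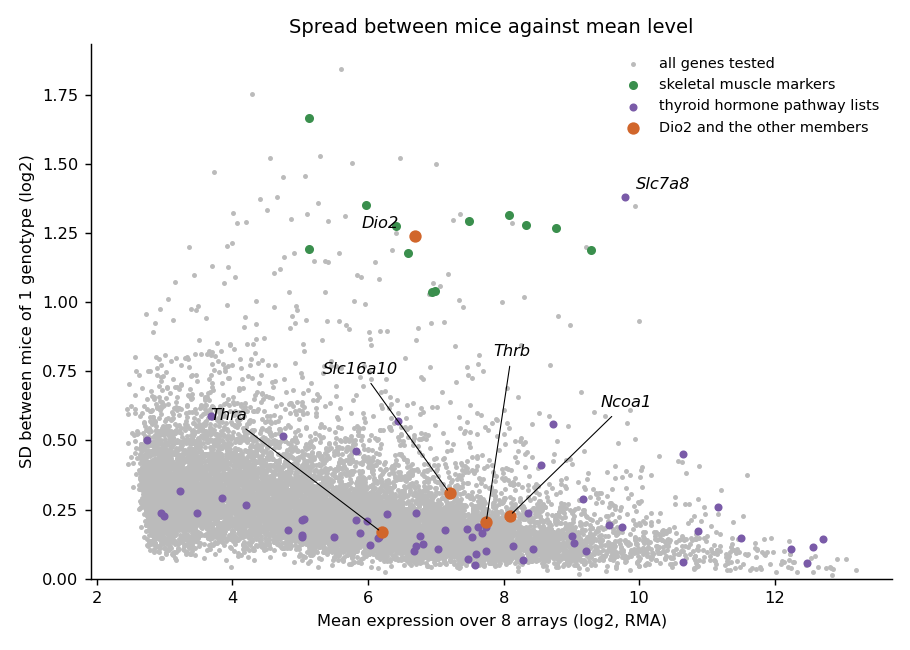
SD between mice of 1 genotype (log2) against mean expression over 8 arrays (log2) for the 13223 genes tested (grey), with skeletal muscle markers in green, thyroid hormone pathway genes in purple and the members in orange. Dio2 at 1.24 and the transporter gene Slc7a8 at 1.38 lie among the muscle genes, while the other members lie between 0.17 and 0.31.

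The difference of Dio2 between the labels was not resolved. Abhd15 KO minus WT was 0.59 log2, with a 95% confidence interval of -1.07 to 2.24 that allows changes in either direction (limma adjusted p = 1.00, exact two-sided permutation p = 0.536). The 56 splits of the arrays into 3 and 5 allow no permutation p below 0.0179. The result turned on Abhd15 KO replicate 3. Without it the difference was 1.20 (0.35 to 2.04, limma adjusted p = 1.00), and 0 of the 13064 genes then tested passed. Leaving out WT replicate 1 gave 0.21, and leaving out Abhd15 KO replicate 5 gave 0.23. A second Dio2 probe set rose above the dim limit in 1 of 8 arrays and gives no usable level.

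Slc16a10 encodes MCT10, a membrane transporter of thyroid hormone and aromatic amino acids. It read 7.14, 6.60 and 7.53 in WT and 7.09, 7.38, 7.05, 7.43 and 7.41 in Abhd15 KO arrays. WT replicates 2 and 3 were the lowest and the highest of all 8, so the Abhd15 KO values lay inside the WT range. The difference was 0.18 (-0.28 to 0.64, exact permutation p = 0.518). Its sign followed single arrays: leaving out WT replicate 2 gave -0.07, leaving out replicate 3 gave 0.40, and leaving out the 2 arrays low in Angptl8 gave -0.02.

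Thra, the receptor gene for TR alpha, varied least of the members, with an SD of 0.17. It read 6.20, 6.05 and 6.45 in WT and 6.17, 6.42, 6.18, 6.05 and 6.07 in Abhd15 KO arrays. The highest mouse of each group, WT replicate 3 and Abhd15 KO replicate 2, stood apart from the rest of its group, and the groups overlapped. The difference was -0.05 (-0.35 to 0.25, exact permutation p = 0.625). Thra makes a hormone-binding isoform and one that does not bind T3, and a gene-level value does not separate them.

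Thrb, the receptor gene for TR beta, read 7.73, 7.85 and 7.88 in WT and 7.94, 7.61, 7.94, 7.63 and 7.37 in Abhd15 KO arrays. The WT mice lay close together, and the other group reached both above and below them. The difference was -0.12 (-0.46 to 0.22, exact permutation p = 0.482). Its lowest value, 7.37, came from Abhd15 KO replicate 5, the mouse with the highest Dio2, and leaving out that array gave a difference of -0.04. Leaving out replicate 3 gave -0.18.

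Ncoa1, which encodes the steroid receptor coactivator SRC-1, read 8.30, 7.82 and 8.13 in WT and 7.77, 8.01, 8.11, 8.27 and 8.32 in Abhd15 KO arrays. The groups spanned nearly the same range. The difference was 0.01 (-0.35 to 0.38, exact permutation p = 0.946). The 2 lowest values came from the arrays low in Angptl8, and leaving out both turned the difference to -0.04 (-0.37 to 0.30).

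None of the 5 measured members passed an adjusted p of 0.05 in limma, as was true of 0 of the 13223 genes tested (0%). At an unadjusted p under 0.05 limma called 0 of the 5 members against 3.99% of all genes. The groups did not overlap in 0 of 5 members, against 2.77% of all genes. The intervals of Slc16a10, Thra, Thrb and Ncoa1 all lay within 0.64 log2 of 0, and that of Dio2 did not.

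The Ppargc1a transcript followed Dio2 closely from mouse to mouse. Ppargc1a encodes PGC-1 alpha, a coactivator that cold and cyclic AMP induce in brown fat. It read 8.0, 8.60 and 8.54 in WT and 8.70, 8.66, 7.94, 9.09 and 8.95 in Abhd15 KO arrays, a span of 2.23-fold. Abhd15 KO replicate 3 and WT replicate 1 were the 2 lowest in both genes, and Abhd15 KO replicates 4 and 5 the 2 highest in both. Pearson's r over the 8 arrays was 0.93 (exact permutation p = 0.00174) and Spearman's rho 0.95 (exact permutation p = 0.00114). Over the 7 relations of Dio2 that were computed, these became 0.0122 and 0.00799 by exact permutation with Benjamini-Hochberg adjustment.

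The relation held in direction without those arrays and lost its call. Without Abhd15 KO replicate 3 and WT replicate 1, the 2 arrays farthest from the median of Dio2, r was 0.73 over 6 arrays (exact permutation p = 0.0917), so the call rests on them. Without Abhd15 KO replicate 3 alone r was 0.89 (adjusted p = 0.119, exact permutation). With each value taken relative to its group mean, r was 0.93, so the relation was as large within the labels as across them. The adjusted p of 0.0227 there came from permutation across both labels, which is only approximate for such centred values. Between the labels Ppargc1a itself differed by 0.29 (-0.29 to 0.87). That value also turned on single arrays: it was 0.47 (0.04 to 0.90, limma adjusted p = 1.00) without Abhd15 KO replicate 3, 0.18 without replicate 4 and 0.10 without WT replicate 1.

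Ucp1, a target of T3 in brown fat, had an r of 0.72 with Dio2 and a rho of 0.76. By exact permutation these gave adjusted p = 0.148 and 0.129, which do not pass the threshold. Over the 6 arrays other than the pair low in Angptl8, r was 0.97 (adjusted p = 0.00972, exact permutation). It also passed without WT replicate 2 alone (r = 0.87, adjusted p = 0.041) or without WT replicate 1 alone (r = 0.78, adjusted p = 0.0486), both by exact permutation. It was smaller without Abhd15 KO replicate 3 (r = 0.55, adjusted p = 0.450, exact permutation) or replicate 5 (r = 0.59, adjusted p = 0.449, exact permutation). Ucp1 moved over a narrow band, 12.51 to 12.89, near the top of the array's scale, where the highest value of any probe set was 13.3.

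Thrb had an r of -0.64 with Dio2 and a rho of -0.62, which do not pass the threshold (adjusted p = 0.207 and 0.268, exact permutation). Without the 2 arrays farthest from the median of Dio2 its r was -0.81, with an unadjusted p of 0.0472 by exact permutation over 6 arrays. Leaving out Abhd15 KO replicate 5 gave -0.40 (adjusted p = 0.746, exact permutation), so its size rests on few arrays. Slc16a10 had an r of 0.39, Thra of -0.13 and Ncoa1 of 0.01, with adjusted p of 0.582 or more by exact permutation. For Slc16a10, r was 0.64 without WT replicate 2 (adjusted p = 0.238, exact permutation) and 0.84 without the pair low in Angptl8 (adjusted p = 0.0802, exact permutation). Markers of skeletal muscle, a tissue that lies beside brown fat and also expresses Dio2, varied widely between these samples. The r of Dio2 with the mean of the 12 muscle markers was -0.08 (adjusted p = 0.976, exact permutation). Without Abhd15 KO replicate 3 and WT replicate 1 it was 0.28 (unadjusted p = 0.599, exact permutation over 6 arrays). WT replicate 1, highest in those markers at 8.72, was second lowest in Dio2. Abhd15 KO replicate 4, second highest in them at 8.07, was second highest in Dio2. Muscle RNA as a source of the Dio2 spread was not tested. The mean of the 7 brown adipocyte markers was lowest in Abhd15 KO replicate 3 (9.16) and highest in replicate 5 (9.51), as Dio2 was. Single markers differed, with r from -0.65 for Zic1 to 0.85 for Elovl3. The relation of Dio2 with that mean was not tested. In a bulk sample, fewer cells of a type and less RNA per cell cannot be told apart.

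**Figure D3:**
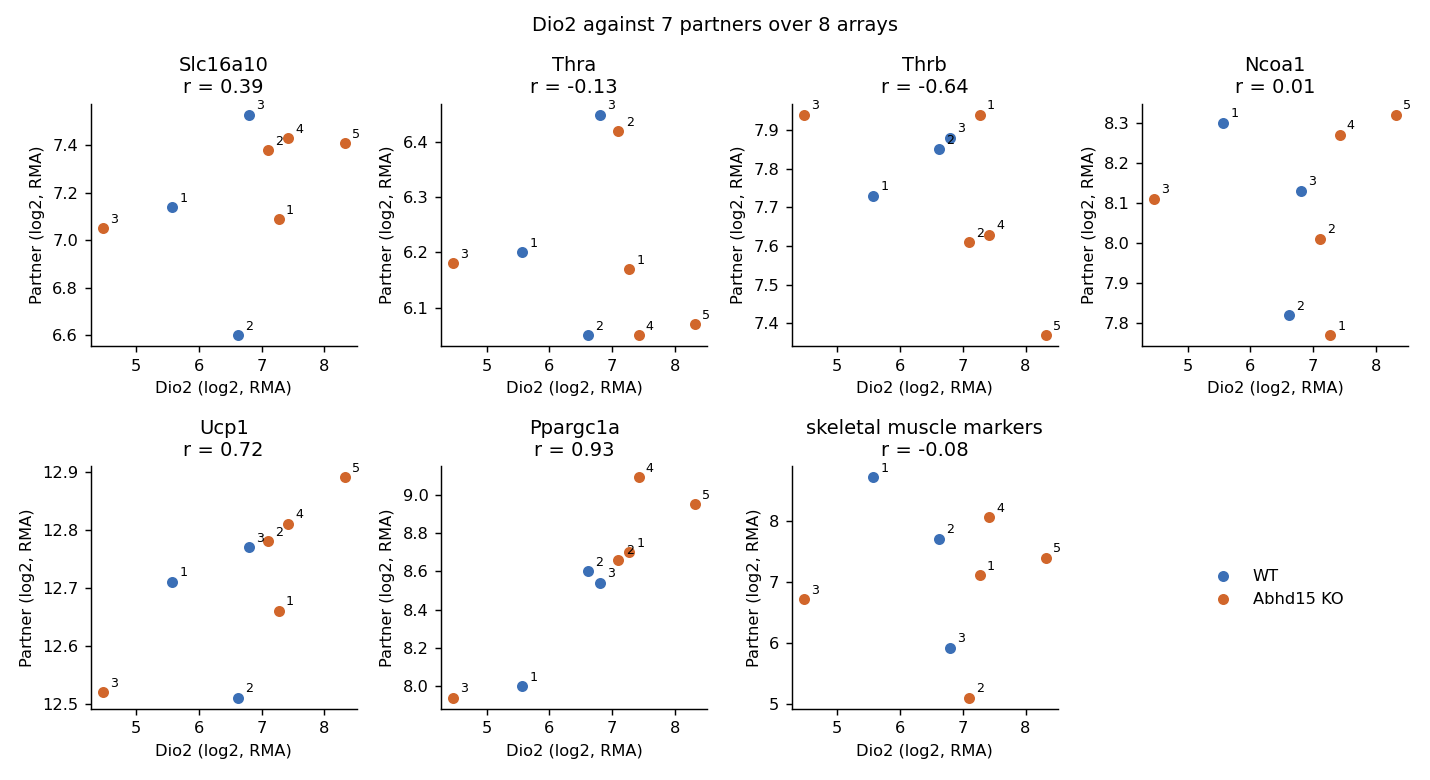
Each panel plots 1 partner (log2) against Dio2 (log2) over 8 arrays, numbered by replicate, with WT in blue and arrays labelled Abhd15 KO in orange. Ppargc1a rises with Dio2 (r = 0.93) and Ucp1 less closely (r = 0.72), while r is -0.64 for Thrb and -0.08 for the muscle marker mean.

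The genes whose pattern over the 8 arrays was most like that of Dio2 were ranked by Pearson's r. The ranking drew on the 2923 tested genes that ranged over at least 1 log2 unit. Dio2 itself, predicted or unnamed gene models, RIKEN clones, microRNAs and small nucleolar RNAs were first left out of these. They were picked from many genes over few arrays, so they are given as a description, with no test. Cd84 (r = 0.93), a leukocyte adhesion receptor, came first and Ppargc1a (0.93) second. They were followed by Cpm (0.90), a membrane carboxypeptidase, Il2rb (0.90), the beta chain of the interleukin 2 receptor, and Ncf1 (0.90), a subunit of the phagocyte NADPH oxidase. Cd84 read 3.10, 3.38 and 3.84 in WT and 3.69, 3.45, 2.76, 3.74 and 3.93 in Abhd15 KO arrays, close to the dim limit. Cpm, Il2rb and Ncf1 were also low, at 3.21 to 4.39, 2.73 to 4.03 and 3.64 to 4.87. The mean of 6 macrophage markers beside them ran from 5.33 to 6.01 in WT and from 4.88 to 5.71 in the arrays labelled Abhd15 KO. That mean was lowest in Abhd15 KO replicate 2, whose Dio2 was 7.10, while Adgre1 alone was lowest in replicate 3, as Dio2 was. Single macrophage markers had r with Dio2 from -0.15 for Cd14 to 0.50 for Adgre1. None of the 6 was dim in all arrays. The part of leukocyte RNA in the Dio2 pattern was not tested.

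The genes most opposite to Dio2 were Atxn7l1 (r = -0.93), Cd46 (-0.91), Hephl1 (-0.88), Nr1d1 (-0.86) and H2al2a (-0.86). Nr1d1 encodes REV-ERB alpha, a heme-binding repressor of the circadian clock. It read 7.98, 7.81 and 7.69 in WT and 7.23, 7.97, 8.26, 7.54 and 6.93 in Abhd15 KO arrays. The mouse with the lowest Dio2 had the highest Nr1d1 and the mouse with the highest Dio2 the lowest. Nr1d1 lies beside Thra on the opposite strand, and their 3′ ends overlap. Cd46, a complement regulator, was highest in Abhd15 KO replicate 3 (5.07, against 3.79 to 4.50 in the other arrays). Atxn7l1 lay at 5.26 to 6.34. Hephl1 and H2al2a, at 3.02 to 4.04 and 2.98 to 4.04, were close to the dim limit, and H2al2a has close copies, which makes its probe set uncertain.

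**Figure D4:**
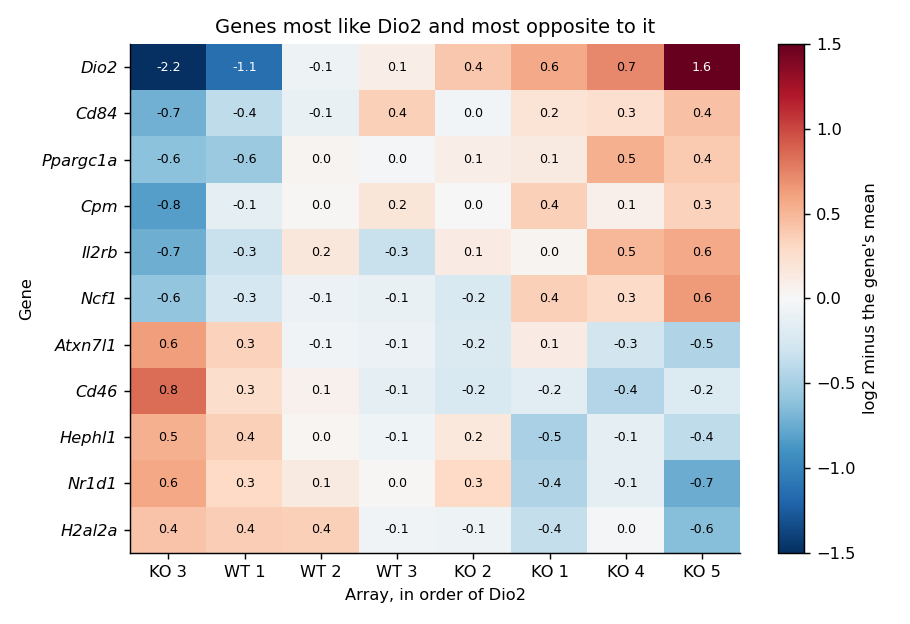
Expression of Dio2, the 5 genes most like it and the 5 most opposite, each as log2 minus the gene's own mean over 8 arrays, with arrays in order of Dio2. Dio2 spans 3.85 log2 from Abhd15 KO replicate 3 to replicate 5, with colours saturated at its ends, while Nr1d1, the widest of the other 10 genes, spans 1.33.

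The rest of the pathway was read from 9 lists of 74 genes, of which 67 had a probe set of their own and 62 were tested. With limma, 0 of the 62 rose and 0 fell at an adjusted p of 0.05, against 0% of all genes. At an unadjusted p under 0.05 there were 2 of 62 (3.23%, against 3.99% of all genes). The groups did not overlap in 1 of 62 (1.61%, against 2.77%). The median difference was 0.02, beside 0.01 over all genes tested.

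Of the other deiodinases, Dio3, which inactivates thyroid hormone, was below the dim limit in all arrays (1.65 to 2.54). Dio1, the deiodinase of liver and kidney, lay close to that limit, at 3.43, 3.49 and 3.22 in WT and 3.38, 2.99, 2.60, 3.10 and 3.58 in Abhd15 KO arrays. Its difference was -0.25 (-0.72 to 0.21). Like Dio2, it was lowest in Abhd15 KO replicate 3 and highest in replicate 5.

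Among transport and binding proteins, 0 of 8 tested genes passed, with 3 higher, 5 lower and a median of -0.05. Slc7a8, the light chain LAT2 that carries amino acids and thyroid hormone, was the most variable, at 10.98, 7.20 and 9.91 in WT and 8.50, 9.92, 10.03, 10.86 and 10.93 in Abhd15 KO arrays. The span was 13.8-fold, nearly that of Dio2. Its 2 lowest arrays were the pair low in Angptl8, while Dio2 was lowest in others. The difference was 0.68 (-1.15 to 2.52), and it turned to -0.40 when WT replicate 2 was left out and to -0.01 when the pair was. Its heavy chain partner Slc3a2 ranged from 8.03 to 9.33 and differed by 0.10 (-0.66 to 0.87). The LAT1 gene Slc7a5 differed by -0.30 (-0.68 to 0.07) and the bile acid transporter gene Slc10a1 by -0.31 (-0.68 to 0.06), both close to the dim limit. Slco1c1, the T4 transporter of brain vessels, was dim in all arrays at 2.25 to 2.76.

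Retinoid X receptors pair with the thyroid hormone receptors on DNA. Of 3 such genes 0 passed, and the median difference was 0.02. Rxra differed by -0.08 (-0.29 to 0.14), Rxrb by 0.02 (-0.35 to 0.39) and Rxrg by 0.19 (-0.09 to 0.48). Rxra lay at 7.50 to 7.67 in all arrays.

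Of 10 other coactivators 0 passed, with 6 higher, 4 lower and a median of 0.04. Carm1, an arginine methyltransferase that works with the SRC family, differed by -0.18 (-0.42 to 0.06), Med1, the Mediator subunit that binds liganded receptors, by 0.17 (-0.11 to 0.46), and Ncoa3 by 0.11 (-0.13 to 0.36). Of 5 corepressor genes 0 passed, with 1 higher, 4 lower and a median of -0.06. Tbl1x and Tbl1xr1, related subunits of the corepressor complex, differed by -0.20 (-0.51 to 0.12) and 0.23 (-0.10 to 0.55). Hdac3, its deacetylase, differed by -0.07 (-0.29 to 0.15).

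The deiodinase protein is short-lived, and ubiquitin tagging ends its activity. Of 6 genes of that turnover 0 passed, with a median of 0.13. Wsb1, the adaptor of a ubiquitin ligase for the enzyme, differed by -0.17 (-0.48 to 0.14), Marchf6, a ligase of the endoplasmic reticulum, by 0.16 (-0.10 to 0.43), and Usp20, a deubiquitinase that rescues the enzyme, by 0.17 (-0.12 to 0.46). The deiodinases are selenoproteins. Of 9 genes listed under selenoprotein synthesis, not all of which insert selenocysteine, 0 passed and the median was 0.04. The 3 lowest p-values among these were of Scly (0.16, -0.14 to 0.45), Sephs1 (-0.15, -0.50 to 0.20) and Secisbp2l (0.12, -0.18 to 0.42).

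Of 5 tested genes listed for signalling to Dio2 0 passed. All 5 were higher, by 0.01 for Nr1h3 to 0.29 for Ppargc1a, with a median of 0.07. The list was not split into activators and repressors of Dio2. Its beta adrenergic receptor genes had no probe set of their own and were not analysed. Besides Ppargc1a, the cyclic AMP-responsive factor Creb1 differed by 0.07 (-0.23 to 0.38) and its relative Atf2 by 0.10 (-0.16 to 0.36). Of 15 genes reported to respond to thyroid hormone in liver or fat 0 passed, with 9 higher, 6 lower and a median of 0.02. Bcl3, a partner of NF-kappa B, differed by 0.82 (0.04 to 1.60), and by 0.30 without WT replicate 2, its lowest array at 4.89. Without the pair low in Angptl8 it differed by 0.35 (-0.14 to 0.84). The glucose transporter gene Slc2a4 differed by 0.34 (0.10 to 0.58), and it was the gene of the pathway lists whose groups did not overlap. Pck1, which makes the glycerol backbone of triglycerides in fat, differed by -0.13 (-0.37 to 0.12). The classic hormone-responsive genes Thrsp and Klf9 differed by -0.12 (-0.40 to 0.16) and 0.07 (-0.26 to 0.40).

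**Figure D5:**
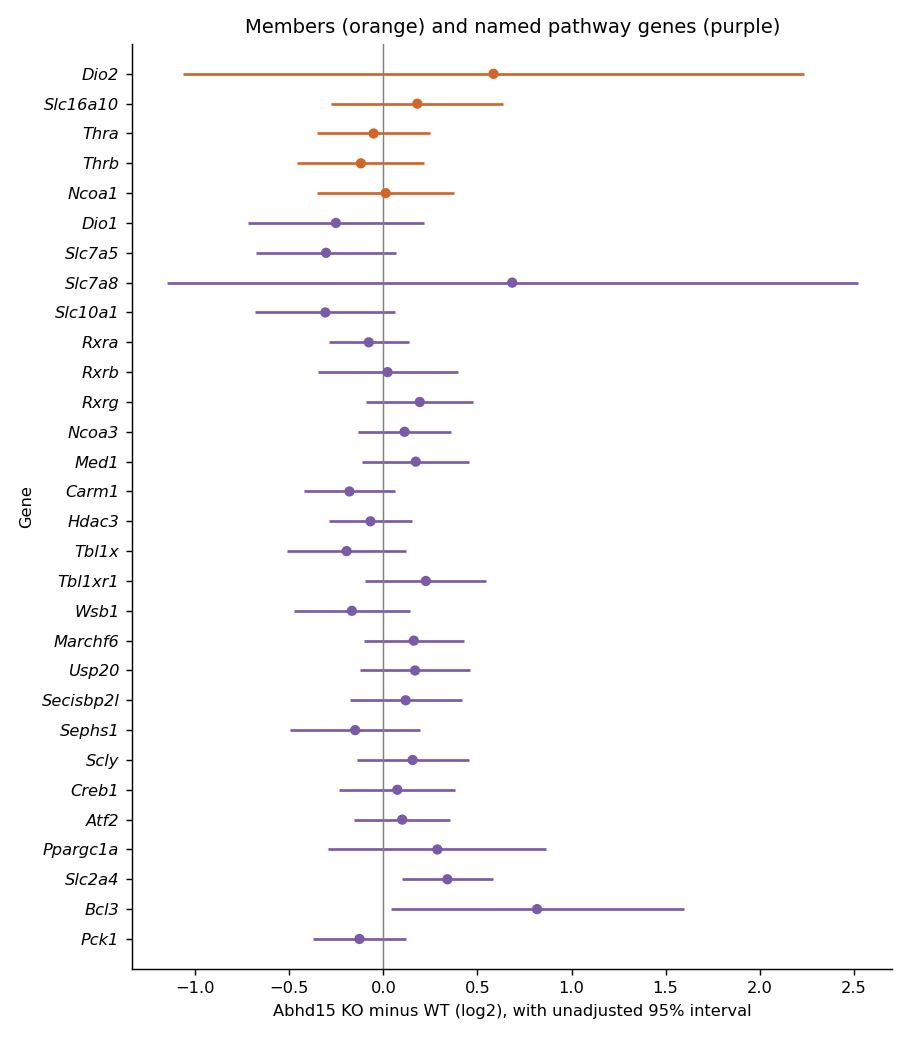
Difference of Abhd15 KO minus WT (log2) with its 95% confidence interval, not adjusted for the number of genes, for the 5 members (orange) and the named pathway genes (purple). The intervals of Dio2 (-1.07 to 2.24) and Slc7a8 (-1.15 to 2.52) are the widest shown, and those of Slc2a4 and Bcl3 leave out 0 without passing the adjusted threshold.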

How the data were processed

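The authors deposited log2 values, 1 per probe set and array. The submitters' processing notes name RMA (background correction, quantile normalization and summary) and the oligo package, with no version, while the design text names Expression Console, and which of them wrote the values is unsettled. The sources used here name no genome build. Quantile normalization would hide a change shared by most genes. Of 41345 probe sets, 23521 named 1 gene symbol in the platform annotation, 1814 several and 16010 none. The probe set with the highest mean stood for a gene. Genes above the dim limit (95th percentile of 1400 receptor probe sets) in at least 3 arrays were tested, 13223 in all.

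The test was limma 3.58.1 under R 4.3.3 (eBayes after lmFit with 1 group term, Benjamini-Hochberg over all genes tested, threshold 0.05). The limma step was tried on simulated data and the correlation test on small made-up inputs. The other steps were not tried in this way. Single values and correlations had exact two-sided permutation tests, which are approximate for values centred on their group means. Planned relations of Dio2 with Ncor1 and Adrb3 could not be computed, which left 7. Named are all members, the 3 pathway genes of lowest p per list and the 5 genes most like and most opposite to Dio2. Other genes named were picked after their values were seen. The members, lists and alternatives were chosen with earlier results of these data known. Arrays give no read depth, and their number limits the precision. Array medians lay between 3.00 and 3.04. Whether the replicate numbers pair the mice is not stated, and the test took them as unpaired. Deviations from the group means of same-numbered samples correlated at -0.26, -0.10 and 0.02. Those of differently numbered samples correlated at -0.25 to 0.39, so these values cannot settle it.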

Additional observations from a re-analysis of the deposited data

Results flagged for a closer look

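Among the 5 arrays labelled Abhd15 KO, 1 array lay far from the others in 3 of the 39 named genes, by a criterion that chance meets in about 1 of 20 groups. At that rate some of 39 genes would meet it by chance. Cd46 read 5.07 in replicate 3, with the next array at 4.07. It was picked for running opposite to Dio2, which was lowest in that array, so it is no separate flag. Tbl1xr1 read 8.21 in replicate 4, with the next at 7.80. Usp20 read 5.33 in replicate 1, with the next at 5.07. Dio2 came close without meeting it: the gap between replicate 3, its lowest array, and the next was 0.68 of the group's range, where 0.71 is needed.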

How the results depend on the processing

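Over 18 alternatives 0 of the 5 members and 0 pathway genes passed. Directions of uncalled member differences did turn, and the cause was not tested. With the replicate number as a block the differences were -0.0513 for Dio2, 0.0283 for Thra, 0.013 for Thrb and -0.12 for Ncoa1. Ncoa1 was also below 0 with a second quantile normalization (-0.0059), median-centred arrays (-0.0019) and array weights (-0.0043). Leaving out arrays gave ranges of -0.12 to 0.12 for Ncoa1, -0.0658 to 0.40 for Slc16a10, -0.14 to 0.0576 for Thra, -0.18 to -0.04 for Thrb, 0.10 to 0.47 for Ppargc1a and -0.40 to 1.49 for Slc7a8. The block gave 0.05 for Ppargc1a. The medians of the pathway lists lay between -0.39 and 0.16 over the alternatives, on both sides of 0 for most lists.

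With the mean of all probe sets per gene, which averages Dio2 with its dim probe set, the Dio2 SD was 0.75, r with Ppargc1a 0.87 (adjusted p = 0.0604, exact permutation), with Ucp1 0.58, with Thrb -0.38, with Thra 0.0157 and with Ncoa1 -0.24, and 0 of the 7 relations passed. Leaving out single arrays or the pair low in Angptl8, the SD ranged from 0.60 to 1.50 and r with Ppargc1a from 0.89 to 0.97. In those settings 0 to 2 relations passed. Their r ranged from -0.25 to 0.0683 for Thra, -0.30 to 0.28 for Ncoa1 and -0.27 to 0.18 for muscle markers. It ranged from -0.83 to -0.40 for Thrb, 0.30 to 0.84 for Slc16a10 and 0.55 to 0.97 for Ucp1. The second relation that passed was that with Ucp1. With 3 against 5 mice and the spread of Dio2, only large changes of that gene could have been called.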

Other observations

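Abhd15, the gene named by the label, was lowest in Abhd15 KO replicate 3 (5.68), the mouse with the lowest Dio2, and highest in replicate 4 (6.34). It was picked after its values were seen and has no test here.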
